A study of Mus musculus with 8 samples.

Results

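Livers with Dicer1 deletion directed to hepatocytes were compared with those of littermates that kept the gene, both after injection of the vehicle alone. The comparison used 4 of the 8 arrays of the series, chosen by their titles: the vehicle arrays of the knockout (KO, arrays a and b) and of the control called wild type (WT, arrays a and b). Of the 18153 genes measured in any group of the series, 17563 had a probe well above background on both arrays of one of these groups, and these are the genes described.

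All mice were C57BL/6, 6 months of age and labelled female. KO mice were Albumin-Cre;Dicer1loxP/loxP, in which the Alb promoter drives Cre to delete the floxed gene in hepatocytes. How complete the deletion was, and whether it reached other cells of the liver, was not measured. WT mice were Dicer1loxP/loxP littermates without Cre, so both genotypes carried the floxed alleles and only KO mice the recombinase. Vehicle mice received dimethylsulfoxide at 2 ml/kg body weight by intraperitoneal injection. The other 4 arrays came from mice of the same genotypes given a single dose of 120 mg/kg of N-ethyl-N-nitrosourea (ENU), which alkylates DNA, and examined on day 15. Total RNA of the liver was labelled with Cy3 and hybridised to 60-base oligonucleotide arrays of 1 colour.

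Dicer1 is the ribonuclease that cuts precursor hairpins into mature microRNAs, short RNAs that pair through their seed with messenger RNAs and lower their stability or translation. In hepatocytes miR-122 is the most abundant microRNA, and the let-7 family rises as the liver matures. Adult hepatocytes divide rarely, make most serum proteins, and carry the detoxifying enzymes, bile acid synthesis and nitrogen disposal of the body. The genotype comparison on vehicle asks how the transcripts of the whole liver differ when Dicer1 deletion is directed to these cells.

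Arrays a and b of a group behaved as repeats of 1 RNA sample. Over probes spotted at least 5 times, the median difference between the arrays was 0.844 standard errors of the spots for KO and 0.692 for WT, against 19.4 to 21.9 between the groups. Each group was therefore counted as 1 sample, no test across animals exists, and the spread of the arrays is technical error. The labels give neither the number of mice behind a sample nor whether they were pooled. Levels are log2 signals relative to the 75th percentile of the array, a difference is KO minus WT, and a gene was counted when it was at least 2-fold apart. For a gene that no array of one group measured well above background (called dim there), the fold is a lower bound, written "at least", against the dimmest signal that those arrays told from background.

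The 4 vehicle arrays shared a slide, on which KO took the first 2 positions and WT the next 2, and an effect of the position cannot be told apart from that of the genotype. The 75th percentile of signal was 629 and 674 on the KO arrays and 443 and 437 on the WT arrays, and 65.2% to 66.2% of spots were well above background in KO against 54.7% to 59.4% in WT. No spot was saturated. Between the arrays of a group, 112 genes (0.638%) differed at least 2-fold in KO and 338 (1.92%) in WT. The Y-linked genes Kdm5d and Zfy1 were well above background on all 4 vehicle arrays, against the label of female mice. In whole liver, fewer cells of a type and less RNA per cell cannot be told apart.

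Across the liver, more genes were at least 2-fold higher in KO than lower, and the largest differences were on the higher side. Of the 17563 genes, 2413 (13.7%) were at least 2-fold higher and 1930 (11%) at least 2-fold lower, and 13220 (75.3%) lay between. In the ENU pair, given beside some values as a second view of the genotypes, 14.1% were higher and 13.8% lower. The excess of higher genes grew with the fold: 857 genes were at least 4-fold higher and 273 lower, 102 at least 16-fold higher and 24 lower, and 13 at least 64-fold higher and 4 lower. In 23 of the genes past 2-fold the arrays overlapped between the groups. Among the 14875 genes well above background on all 4 arrays, 1664 (11.2%) were higher and 1794 (12.1%) lower.

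The balance of higher and lower genes depended on the scaling. Higher genes made up 55.6% of the calls when arrays were scaled on the 75th percentile, 38.5% when they were scaled on the median and 87.3% with no scaling, an alternative added after the data were seen. The median difference of genes measured in both groups was -0.23 on the main scale, -0.45 under median scaling and 0.34 unscaled, so a list or family with a median near these values did not stand apart from the array as a whole. The direction also varied with level. With genes split by mean level into 4 equal bins, 17.5% of the dimmest bin were higher and 8.08% lower, whereas 4.94% of the brightest bin were higher and 17.9% lower.

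**Figure D1:**
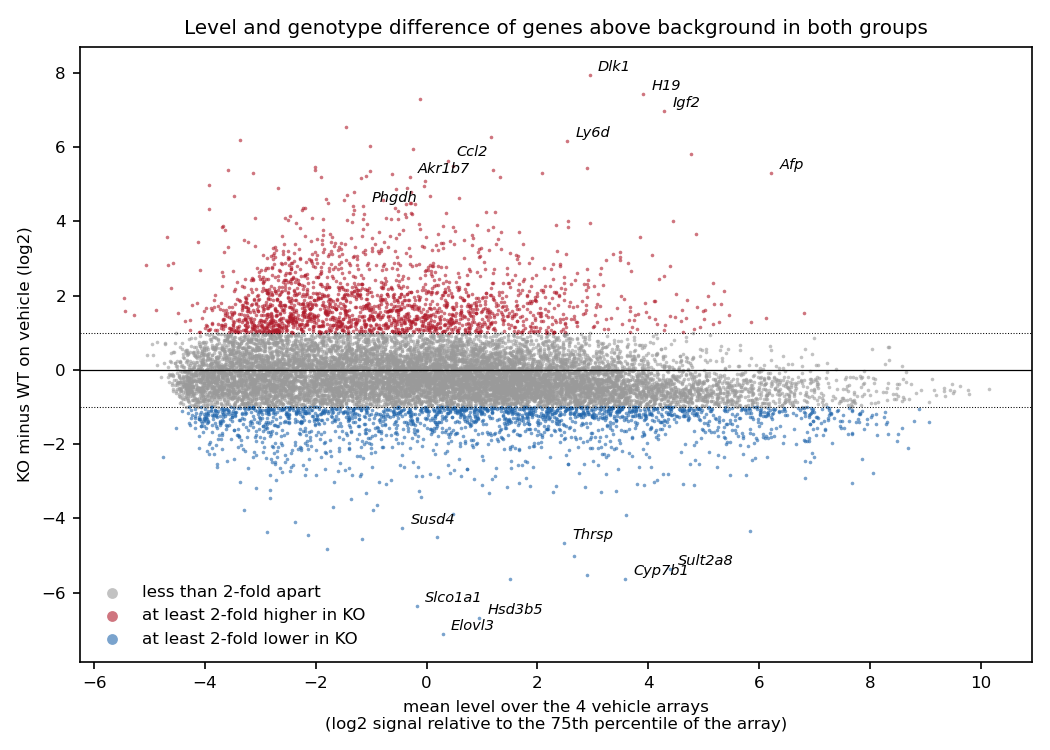
Difference between KO and WT on vehicle (vertical axis, log2) against the mean level over the 4 vehicle arrays (horizontal axis, log2 signal relative to the 75th percentile of the array), 1 point per gene above background in both groups. Points at least 2-fold higher in KO are dense at low and middle levels, and the points at least 2-fold lower make up 17.9% of all genes in the brightest of 4 equal bins.

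Dicer1 itself was lower in KO by both of its probes on the main scale, to unequal extents. The probe at chr12:102186776-102188847 (mm7, the build of the array annotation) read -4.13 and -4.50 on the KO arrays and -1.92 and -1.80 on the WT arrays, 5.5-fold lower in KO. The probe at chr12:102216485-102216544 read 0.62 and 0.63 in KO and 1.17 and 1.08 in WT, 1.41-fold lower, though its sign turned with no scaling (0.069). Both were well above background on all 4 arrays, with no overlap between groups. After ENU the same probes were 2.85-fold and 1.19-fold lower. Which probe lies within the deleted exons is not given in the labels, and whole liver also holds RNA of cells other than hepatocytes.

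The rest of the microRNA machinery differed little. Of 24 measured genes of microRNA processing, none was 2-fold higher or lower, and their median difference was -0.07, a sign that turned under quantile normalization and without scaling. The largest differences were those of Ago2 (0.88), the Argonaute that can slice its target, Drosha (0.87), the nuclease that cuts primary transcripts, Tut4 (0.81), which adds uridines to microRNA precursors, Cnot1 (0.80, or 0.19 as the mean of its probes), the scaffold of the deadenylase complex, and Tnrc6a (0.77), which links Argonaute to it. Ago2 read 3.29 and 3.29 on the KO arrays and 2.41 and 2.42 on the WT arrays. After ENU 5 of the 24 were at least 2-fold higher.

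Transcripts that carry microRNA hairpins ranged from the highest genes of the comparison to moderately low ones. Of 36 measured host transcripts, 9 were at least 2-fold higher and 6 lower. H19, Igf2, Mirg, Rian and Meg3 led the list, and in RefSeq (GRCm38.p6) they hold 1, 1, 10, 3 and 1 hairpins. H19, an imprinted noncoding RNA, read 7.62 on each KO array and 0.18 and 0.21 on the WT arrays, 171-fold higher. Mirg, whose span is chr12:109734981-109749458 on the plus strand, read 2.63 and 2.61 in KO and was not well above background in WT, at least 109-fold higher. Rian was at least 79.8-fold higher and Meg3 56.1-fold (on the log2 scale 6.32 and 5.81, or 4.92 and 6.77 as the mean of their probes). Host genes outside these clusters differed less: Mest was 4.64-fold and Evl 3.40-fold higher, whereas Rcl1, which overlaps miR-101b, was 3.78-fold lower and Pank1, which holds miR-107, 3.38-fold lower. Mature sequences from RefSeq of microRNAs within the highest hosts are shown because the arrays measured the host RNA and not the product; capitals mark the seed, bases 2 to 8.
mmu-miR-675-5p (within H19): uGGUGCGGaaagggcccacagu
mmu-miR-675-3p (within H19): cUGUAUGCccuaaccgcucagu
mmu-miR-483-3p (within Igf2): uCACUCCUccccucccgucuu
mmu-miR-370-3p (within Rian): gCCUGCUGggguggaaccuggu
mmu-miR-410-3p (within Mirg): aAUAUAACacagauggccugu
mmu-miR-770-5p (within Meg3): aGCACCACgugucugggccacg

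The seeds of these 6 microRNAs are all different. The interval from Dlk1 to Dio3, chr12:109463336-110279230 in GRCm38.p6, holds 58 annotated hairpins with 108 mature forms, some of them within Mirg, Rian and Meg3. The arrays held no value for the mature forms.

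Reported targets of the main hepatocyte microRNAs were more often higher than lower, although most were within 2-fold. Of 31 measured reported targets of miR-122, 10 were at least 2-fold higher and none lower, with a median difference of 0.58 over the 28 measured in both groups. The largest were Ccl2 (5.63), the monocyte chemokine, Klf6 (2.75), a zinc finger transcription factor, Gpx7 (2.72), a glutathione peroxidase of the endoplasmic reticulum, Igf1r (2.15), the receptor of insulin-like growth factors, and Iqgap1 (1.92), a scaffold of the cytoskeleton. Of 26 measured reported targets of let-7, 10 were at least 2-fold higher and none lower, with a median of 0.79. Igf2bp3 (4.36), a fetal RNA-binding protein, Ccnd1 (3.29), cyclin D1, Arid3a (3.28), a DNA-binding protein, Plagl1 (2.80), an imprinted zinc finger factor, and Myc (1.70) led them. The 11 mature let-7 family members of RefSeq share one seed in 10 cases; the seed of let-7j differs in its last base. Capitals again mark the seed.
mmu-let-7a-5p: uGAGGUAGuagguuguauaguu
mmu-let-7c-5p: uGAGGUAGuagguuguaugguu
mmu-let-7g-5p: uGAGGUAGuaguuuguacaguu
mmu-miR-98-5p: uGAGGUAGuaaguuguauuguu
mmu-let-7j: uGAGGUAUuaguuugugcuguuau

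The highest genes on all 4 arrays were fetal and imprinted transcripts. Dlk1, a membrane protein of fetal hepatoblasts, read 6.89 and 6.93 on the KO arrays and -1.05 and -1.01 on the WT arrays, 245-fold higher. Igf2, the fetal growth factor, read 7.77 and 7.77 against 0.82 and 0.80, 125-fold higher. Afp, the fetal counterpart of albumin, read 8.90 and 8.83 against 3.56 and 3.56, 39.4-fold higher. In each, both KO arrays lay far above both WT arrays, and the arrays of a group nearly coincided. Ly6d, a surface protein of the Ly6 family, read 5.60 and 5.62 against -0.58 and -0.50, 71.1-fold higher. Gpc3, an oncofetal heparan sulfate proteoglycan, was 61.3-fold higher, Peg3, a paternally expressed zinc finger gene, 44.8-fold, and Grb10, an imprinted adaptor of the insulin receptor, 39.4-fold. Of 27 measured genes of fetal liver 23 were at least 2-fold higher and 1 lower, and of 42 imprinted genes 21 were higher and 3 lower.

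Secreted inhibitors, junction proteins and enzymes not typical of adult hepatocytes filled much of the remaining top 20. Slpi, the secretory leukocyte protease inhibitor, read 5.62 on each KO array and 0.13 and 0.22 on the WT arrays, 43.5-fold higher, against a difference of 2.67 after ENU. Exoc3l4 was 41.6-fold higher, Mfap2, a microfibril protein, 38.7-fold, Akr1b7, an aldo-keto reductase, 36.4-fold, Tmprss4, a transmembrane serine protease, 33.9-fold, and Cldn7, a claudin of epithelial tight junctions, 31.0-fold. Some genes turned on their probe. Wfdc3 was 40.9-fold higher by its brightest probe and -0.10 by another, Mfap2 had a second probe at 2.13, and Scn2a was higher by a probe that was dim in WT but lower (-2.38) by another, so no direction is given for Scn2a. A transcript without a gene symbol, 76.5-fold higher, also stood among the top 20. Of 1337 genes past 2-fold with several probes, 125 had probes of opposite sign and 23 a probe at least 2-fold the other way.

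Several genes above background only in KO had large bounds. Bex1, a small adaptor protein of neurons and fetal tissues, read 2.67 and 2.71 in KO and was at least 115-fold higher. Sult2a2, a hydroxysteroid sulfotransferase, read 2.53 and 2.56 and was at least 104-fold higher by its brightest probe, but its other probe differed by 2.42 on the log2 scale. Gipc2 was at least 36.8-fold, Eps8l3 at least 33.9-fold, Tinag, a basement membrane antigen, at least 33.4-fold, and Psat1, an enzyme of serine synthesis, at least 29.3-fold higher. In all, 1508 genes were dim in WT and 420 of them were past 2-fold by the bound. Only 81 genes were dim in KO, of which 80 were past 2-fold.

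The lowest genes were enzymes and transporters of the adult liver, with male-predominant genes first among them. Elovl3, an elongase of very long chain fatty acids, read -3.16 and -3.37 on the KO arrays and 3.84 on each WT array, 138-fold lower. Hsd3b5, a steroid reductase, read -2.30 and -2.50 against 4.28 and 4.30, 103-fold lower. Slco1a1, an organic anion transporter, read -4.28 and -2.42 against 3.0 and 3.01, 81.8-fold lower. Its KO arrays lay further apart than those of the other genes named here, yet neither approached WT, and the difference on the log2 scale, -6.35, was between -7.29 and -5.42 when 1 of them was left out. Below these, Hsd3b4 was 49.7-fold, Cyp7b1, an oxysterol hydroxylase, 49.6-fold, Sult2a8, a bile acid sulfotransferase, 41.0-fold and Atp12a, a potassium-exchanging proton pump, 28.3-fold lower.

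Genes of lipogenesis, host defence and pigmentation were also among the lowest 20. Thrsp, a lipogenic nuclear protein, was 25.4-fold lower, Defb19, a beta-defensin, 23.3-fold, the pseudogene Serpina4-ps1 22.6-fold, Mc1r, the melanocortin receptor of pigment cells, 22.0-fold, and Susd4, a complement regulator, 19.1-fold. Mc1r read -4.19 and -4.57 in KO and 0.05 and 0.12 in WT. Cpsf4l was 14.8-fold, Olfr166, an olfactory receptor gene, 13.6-fold, and Sdr9c7, a short-chain dehydrogenase, 13-fold lower. All of these 8 genes were at least 10-fold lower after ENU as well.

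Cfd had the largest bound on the lower side. Complement factor D, also called adipsin, starts the alternative pathway and is made largely by fat cells. It read -6.10 and -5.40 in KO, not well above background, and 1.09 and 1.21 in WT, at least 68.6-fold lower. After ENU the bound was -2.25. Because fat, muscle or pancreas can adhere to a liver sample, 3 marker lists were added after these values were seen. Of 9 adipocyte markers 5 were measured. Cidec (1.61), Lpl (1.74) and Fabp4 (0.91) were higher in KO and Pparg was at 0.04. The 1 that was lower and dim in KO was Cfd itself. Adipoq, Retn, Lep and Plin1 were not above background in either group. Of 10 skeletal muscle markers 4 were measured: Myh2, a fast myosin heavy chain, was at least 19.2-fold lower, Mylpf was at -0.53, Tnnc2 at -0.05 and Tnni2 at 1.70. Of 10 pancreatic acinar markers 4 were measured, and Amy2, an amylase, was 4.52-fold lower, with Ctrb1 at -0.25. The part of adhering tissue in these values was not tested. Also on the lower side, Ces4a, a carboxylesterase, was at least 17.6-fold and Olfr125 at least 19.6-fold lower.

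**Figure D2:**
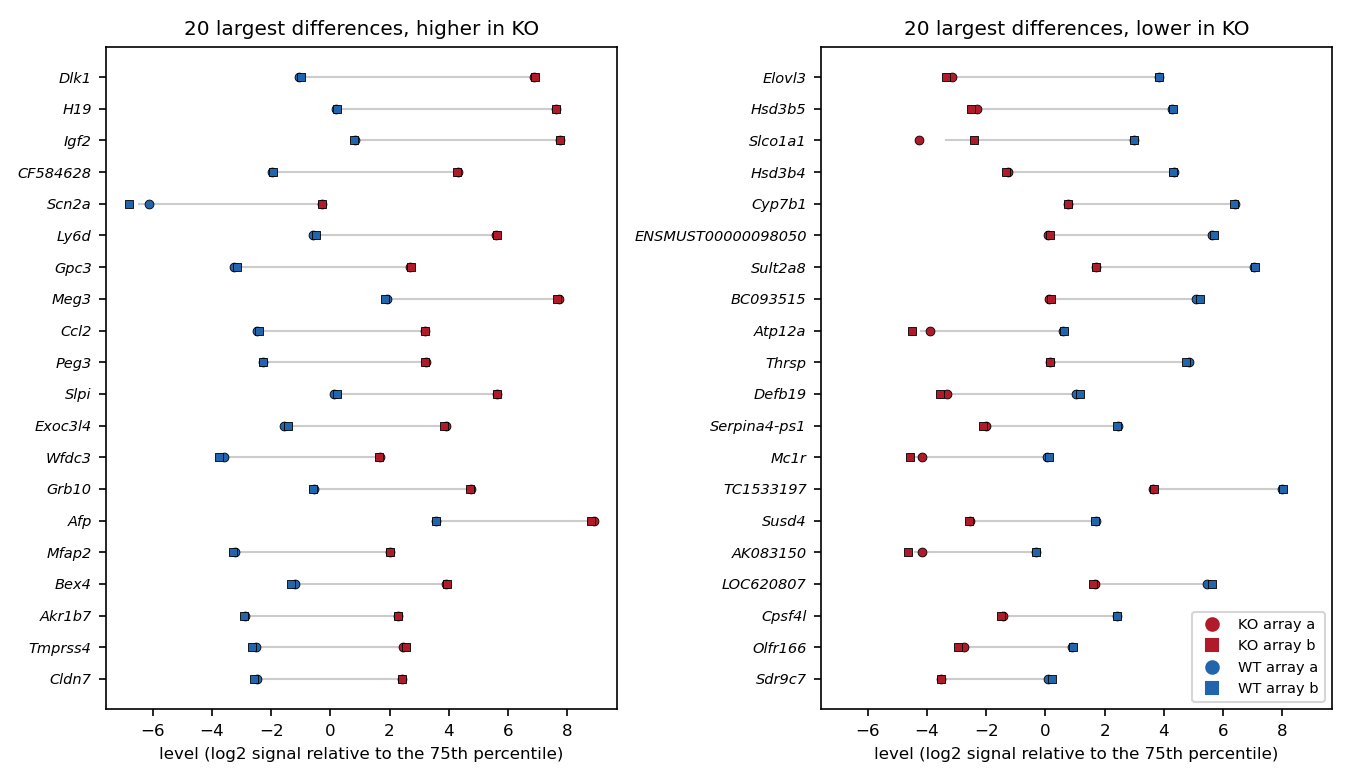
Level on each vehicle array (log2 signal relative to the 75th percentile of the array) of the 20 genes with the largest difference in each direction among those with a probe above background on all 4 arrays (the probe plotted for Scn2a was dim in WT); red marks KO, blue WT, circles array a and squares array b. The arrays of a group overlie each other for nearly every gene, Slco1a1 in KO (-4.28 and -2.42) being an exception, and no gene has overlapping groups.

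Gene families named by their shared symbol were examined next, 138 of them with at least 5 measured genes. The lowest were families of detoxifying and acyl-handling enzymes. Many members are close copies that may share a 60-base probe, so the value of a single member is uncertain. Each family described below as low kept a negative median, and each described as high a positive one, under all 3 other scalings (on the median, by quantiles and none), except for the ribosomal proteins.

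Among cytochromes P450, the Cyp2c and Cyp2d families were lower almost throughout, as were most Cyp2j genes, whereas Cyp3a, Cyp2a and Cyp2b genes were not. Cyp2c enzymes oxidise drugs and fatty acids; 8 of 11 measured genes were at least 2-fold lower, none higher, with a median of -1.85, or -1.06 after quantile normalization. Cyp2c54 read -0.51 and -0.55 on the KO arrays and 2.76 and 2.79 on the WT arrays, 9.88-fold lower. Cyp2c39 was 8.88-fold and Cyp2c37 8.45-fold lower, whereas Cyp2c55 was 1.85-fold higher. Of 7 Cyp2d genes 6 were lower, with a median of -1.94. Cyp2d13 read 1.48 and 1.51 against 4.79 and 4.80, 9.82-fold lower, and Cyp2d22 was 4.22-fold lower (-2.08 on the log2 scale, or -1.38 as the mean of its probes). Of 5 Cyp2j genes, epoxygenases of arachidonic acid, 4 were lower. By contrast, none of 6 Cyp3a genes passed 2-fold in either direction, and of 7 Cyp2a and Cyp2b genes 3 were higher and none lower. Their medians were also negative, -0.36 and -0.62. Cyp2b9 read 4.11 and 4.05 against 0.95 and 0.97, 8.72-fold higher.

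Conjugating and hydrolysing enzymes formed further low families. Of 11 glucuronosyltransferases (Ugt1 and Ugt2), which attach glucuronic acid to bilirubin, steroids and drugs, 8 were lower, with a median of -1.83, or -1.21 after quantile normalization. Ugt2b1 read 2.25 and 2.27 in KO and 5.34 and 5.34 in WT, 8.45-fold lower, and Ugt1a1, the bilirubin enzyme, was 5.29-fold lower. Of 14 carboxylesterases (Ces) 12 were lower, with a median of -1.72 among those measured in both groups; Ces1f was 8.57-fold lower. Of 7 Nat8 genes, N-acetyltransferases, 6 were lower, and Nat8f5 read 0.62 and 0.61 against 3.19 and 3.26, 6.11-fold lower. Nat8l, which makes N-acetylaspartate, went the other way, above background only in KO and at least 3.12-fold higher, although within 2-fold (0.63) under normexp background correction. Of 7 Hsd3b genes 6 were lower and Hsd3b1 was 5.32-fold higher. Of 8 Acsl and Acsm genes, acyl-CoA synthetases, 5 were lower, Acsm2 by 5.81-fold, and of 5 alcohol dehydrogenases (Adh) 4 were lower.

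Subunits of the respiratory chain had small negative medians. Of 44 Nduf genes, subunits and assembly factors of complex I, 17 were at least 2-fold lower and none higher, with a median of -0.92. Of 25 Atp5 and Uqcr genes, subunits of ATP synthase and complex III, 9 were lower and none higher, with a median of -0.96. Of 24 Cox genes 4 were lower and 1 higher, and of 78 mitochondrial ribosomal proteins 7 were lower and none higher, with a median of -0.66; the share of lower genes among mitochondrial ribosomal proteins was below that among all genes, 11%. These medians kept their sign, larger under median scaling (-1.14 for Nduf) and smaller otherwise: that of Nduf was -0.45 after quantile normalization and -0.35 with no scaling, that of Atp5 and Uqcr -0.24 and -0.39, and that of mitochondrial ribosomal proteins -0.09 with no scaling. Cytoplasmic ribosomal proteins, which differed less, turned sign: the 49 large-subunit genes had a median of -0.38, with none past 2-fold, but 0.28 after quantile normalization and 0.19 unscaled.

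Olfactory receptor genes, which are silent in most tissues, showed how a faint family depends on the scale. Of 907 on the array 154 had signal well above background in a vehicle group, 37 of these were at least 2-fold lower and 1 higher, and the median was -0.61 among those measured in both groups. With no scaling the median was -0.04. The log2 75th percentile of KO exceeded that of WT by 0.57, the amount that scaling subtracts from every KO value.

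The highest families were adaptor, calcium-binding, matrix, protease and immune genes. Of 8 Bex and Tceal genes, X-linked adaptor and elongation factor-like genes, 7 were at least 2-fold higher and none lower. Bex4 read 3.91 and 3.94 on the KO arrays and -1.20 and -1.33 on the WT arrays, 36.6-fold higher, and Bex3 was 11.6-fold higher. Of 14 S100 genes, calcium-binding proteins, 7 were higher and 2 lower. S100a11 read 3.11 and 3.14 against -0.70 and -0.76, 14.5-fold higher. S100b was 20.6-fold higher (4.36 on the log2 scale, 3.77 without WT array b and 2.34 under normexp background correction). S100a1 was 2.87-fold and S100a13 2.29-fold lower, though both were within 2-fold with no scaling (-0.95 and -0.63).

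Laminins, the trimeric proteins of basement membranes, were higher for 7 of 10 genes, Lama5 by 9.12-fold, while Lama3 was 6.50-fold lower by its brightest probe and -0.56 by another. Of 17 Adamts genes, secreted metalloproteases, 10 were higher and none lower. Adamts15 read 0.98 and 0.95 on the KO arrays and -3.27 and -3.17 on the WT arrays, 18.2-fold higher. Of 11 matrix metalloproteases 8 were higher, and of 9 Serpinb genes, intracellular protease inhibitors, 6 were higher, Serpinb6b by 18.9-fold. Of 30 kinesins, motors of microtubules, 12 were higher and none lower. Kif20a, needed for cytokinesis, was 10.4-fold higher, and Kif5c, a motor of neuronal transport, 9.10-fold.

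Some immune families were higher, beside the leukocyte markers described further on, and others were not. Of 14 class I MHC genes 2 were higher, and of 15 interleukins 2, against 13.7% of all genes. Of 27 interleukin receptors 7 were higher and 5 lower. Of 11 Ms4a genes 7 were higher, Ms4a7, a macrophage gene, by 16.7-fold. All 7 measured class II MHC genes were higher, between 1.71 and 2.04 on the log2 scale, H2-Aa lowest and H2-Ab1 highest, although H2-Oa was at 0.80 under normexp background correction. Of 10 chemokine receptors 6 were higher, and of 9 Oas genes, the oligoadenylate synthetases of antiviral defence, 7 were higher. Ms4a1, a B cell gene at 1.0, was -0.040 under another background correction.

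**Figure D3:**
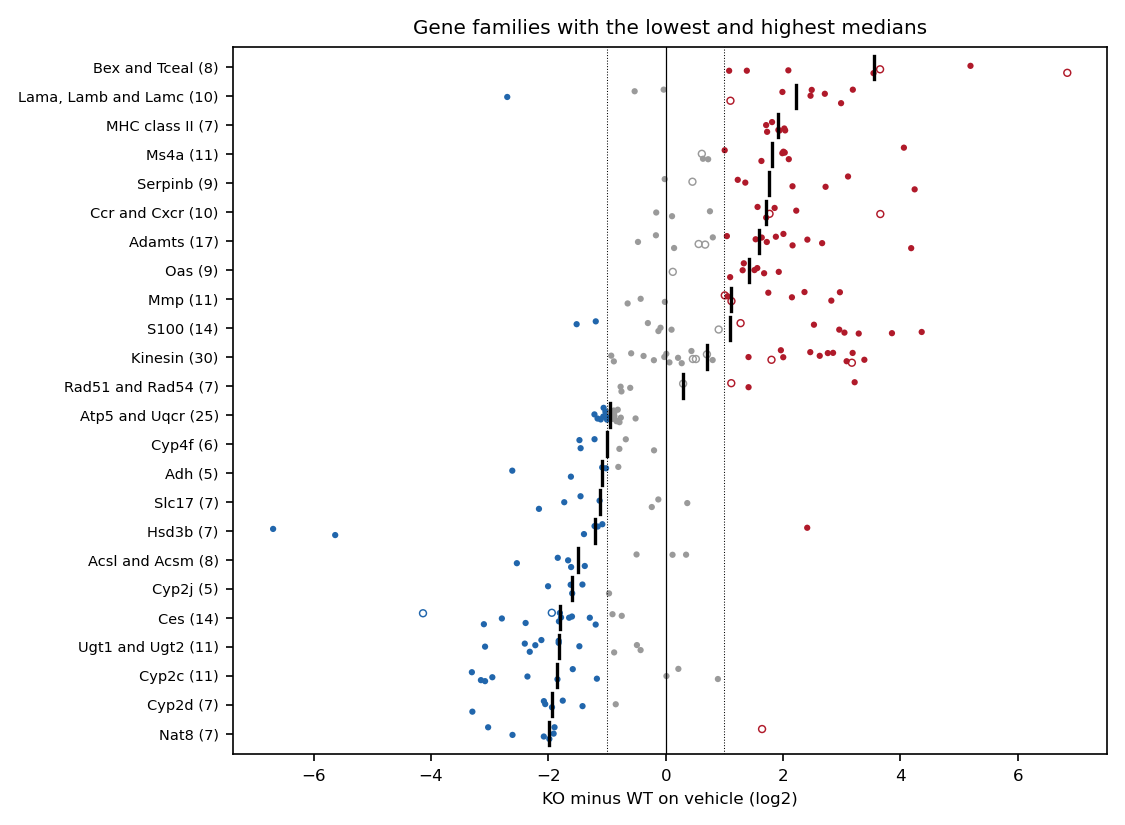
Difference between KO and WT on vehicle (log2) of every measured gene, as a point, in the 12 highest and 12 lowest families by median; the number in brackets is the number of genes measured, filled points were measured in both groups, open circles are bounds, the black bar is the median with bounds, and dotted lines mark 2-fold. Members of the Cyp2c, Cyp2d, Ugt and Ces families lie almost wholly left of 0, and the S100 and laminin families spread to both sides.

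Families often lay together in the genome, and several runs of neighbours differed together. Runs were defined as at least 3 genes at least 4-fold apart in one direction with gaps of no more than 200 kb, in mm7 coordinates; 31 were found. At chr12:106981689-107261405 Dlk1, Meg3, Rian, Mirg and an unnamed transcript were higher, with a median of 6.32. At chrX:130785911-130990954 all 6 measured genes were at least 2-fold higher, 5 of them Bex2, Bex1, Bex4, Tceal9 and Bex3. At chr3:90736122-90822924 all 4 measured genes, S100a4, S100a6, S100a8 and S100a9, were higher. On the lower side, all 9 genes measured at chr15:82458342-82774193, the Cyp2d cluster, were at least 2-fold lower, as were all 6 at chr6:85883597-85976513, around Nat8f3, Nat8f5 and Nat8f4, and all 4 at chr5:87262144-87451744, which joins Ugt2a3, Ugt2b38 and Ugt2a1 to the sulfotransferase gene Sult1b1. Runs of unrelated neighbours were found too: at chr10:126553602-126688521, Marchf9, Agap2, Arhgef25 and Dtx3 were each at least 4-fold higher among 12 measured genes.

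**Figure D4:**
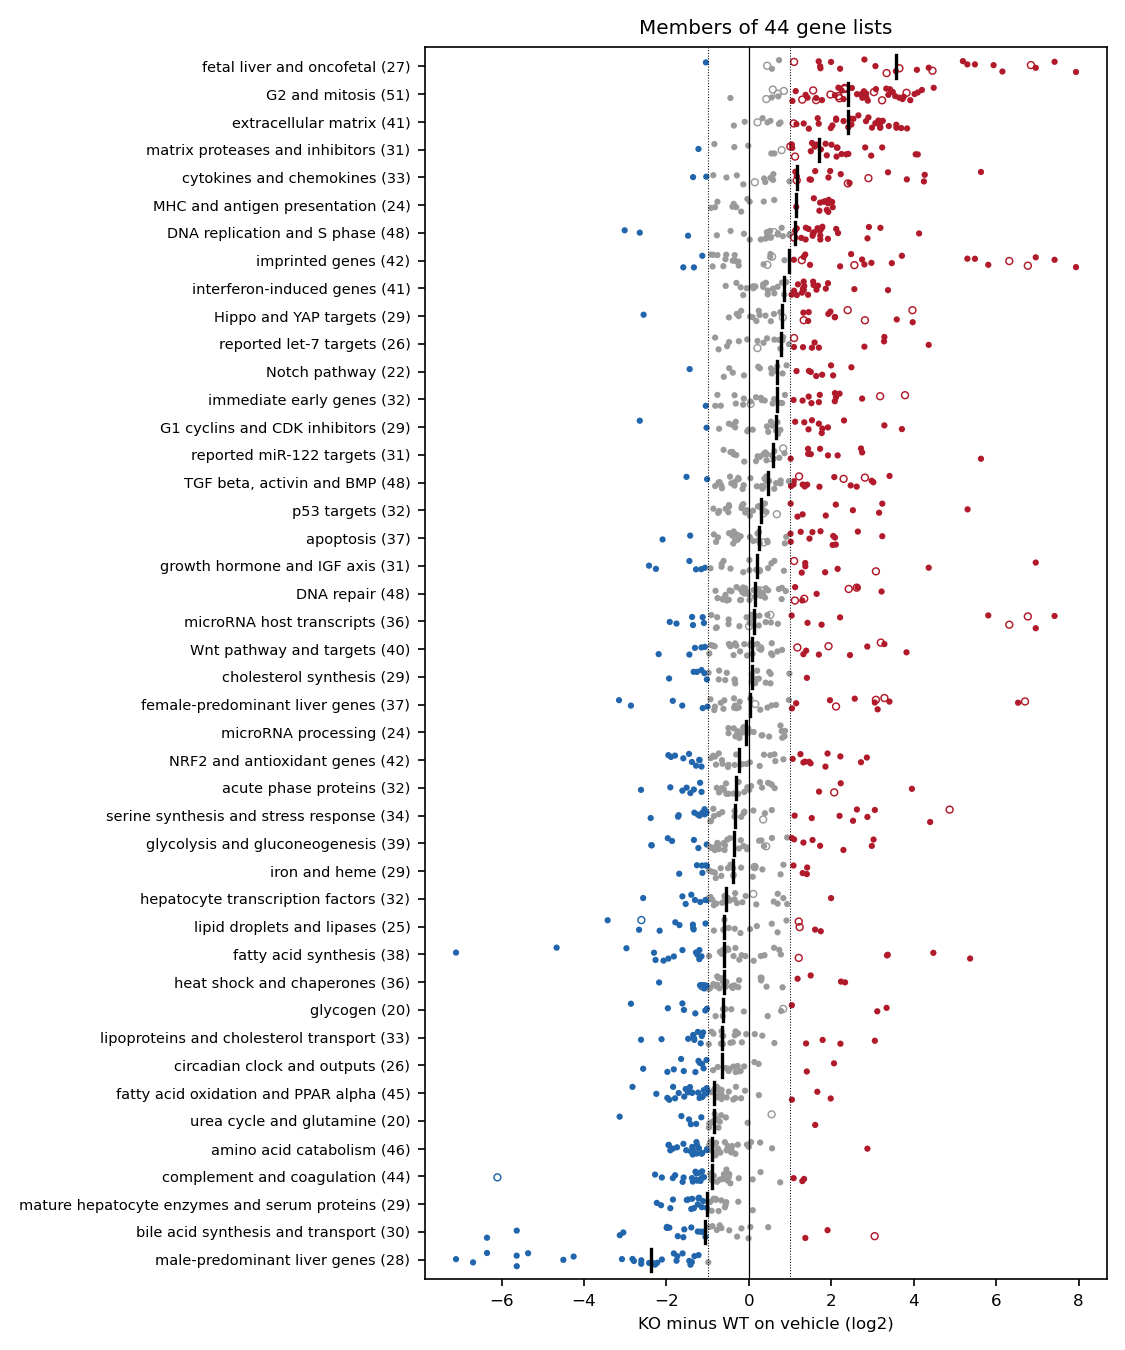
Difference between KO and WT on vehicle (log2) of each measured gene in the 44 gene lists, drawn as in the plot of families, with the number of genes measured in brackets. Fetal liver, mitosis and matrix genes lie furthest right, with medians of 3.57, 2.41 and 2.41 with bounds included, and male-predominant genes furthest left, with a median of -2.38.

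The medians of faint lists were smaller under normexp background correction: with bounds included, those of fetal liver, mitosis and matrix genes were 2.41, 1.36 and 1.67 there, against 3.57, 2.41 and 2.41.

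Genes of cell division were higher in KO, those of mitosis more evenly than those of DNA replication. Of 51 measured genes of G2 and mitosis 43 were at least 2-fold higher and none lower; 16 of them were dim in WT. Cdc20, the activator of the anaphase-promoting complex, read 1.97 and 1.96 on the KO arrays and -2.59 and -2.45 on the WT arrays, 22.4-fold higher. Prc1, which bundles the midzone microtubules, was 18.4-fold and Plk1, a mitotic kinase, 17.1-fold higher. Of 48 genes of DNA replication 24 were higher and 3 lower. Uhrf1, which maintains DNA methylation, was 17.5-fold and Mcm5, a helicase subunit, 9.14-fold higher. On the log2 scale Uhrf1 was at 4.13, at 3.43 without WT array b and at 2.06 under normexp background correction. Mcm10, a factor of replication initiation, went against its list: it read 2.61 and 2.59 in KO and 5.64 and 5.58 in WT, 8.07-fold lower, as did the repressor E2f8, 6.26-fold lower. Of 48 genes of DNA repair, 9 were higher and none lower, against 13.7% and 11% of all genes. Among the 40 measured in both groups 5 were higher, with a median of -0.03, a sign that turned with the scaling.

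Promoters of the mitotic genes are shown because the list was higher almost throughout and such promoters share known elements: the CCAAT box, bound by NF-Y, and the CHR element TTTGAA, bound by the DREAM and MuvB complexes. The 250 bases before the start were searched on both strands in the 11238 measured genes (64%) matched to the RefSeq table (GRCm38.p6). CCAAT stood in 35.9% of all promoters and in 31 of 43 of the mitosis list (72.1%). TTTGAA stood in 11.3% and in 14 of 43 (32.6%), and both together in 4.28% and in 13 of 43 (30.2%). The motifs do not overlap in letters. In the replication list, 59.5% held CCAAT and 16.2% TTTGAA. The promoters below read 5′ to 3′ on the strand of the gene, with both motifs, in either orientation, in capitals.
Cdc20 (chr4:118437344-118437593, minus strand): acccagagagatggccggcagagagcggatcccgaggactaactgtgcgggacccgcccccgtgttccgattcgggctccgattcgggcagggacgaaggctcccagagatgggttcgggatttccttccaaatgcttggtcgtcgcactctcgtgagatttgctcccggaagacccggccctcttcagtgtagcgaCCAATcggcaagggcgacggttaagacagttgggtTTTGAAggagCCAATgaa
Ube2c (chr2:164769679-164769928, plus strand): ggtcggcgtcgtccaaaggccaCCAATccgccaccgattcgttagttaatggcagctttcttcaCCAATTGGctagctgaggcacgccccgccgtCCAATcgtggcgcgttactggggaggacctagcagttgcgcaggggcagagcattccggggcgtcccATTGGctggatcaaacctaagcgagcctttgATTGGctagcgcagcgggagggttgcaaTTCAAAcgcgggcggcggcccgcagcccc
Mki67 (chr7:135716380-135716629, minus strand): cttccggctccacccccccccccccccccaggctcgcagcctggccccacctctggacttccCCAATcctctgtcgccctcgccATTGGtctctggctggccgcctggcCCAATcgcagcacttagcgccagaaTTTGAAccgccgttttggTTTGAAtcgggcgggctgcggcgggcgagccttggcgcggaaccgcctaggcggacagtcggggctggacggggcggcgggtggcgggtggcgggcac

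The TTTGAA element began 18 bases before the start in Cdc20 and 29 bases before it in Ube2c, and Ube2c and Mki67 hold several CCAAT boxes in both orientations. Ube2c, the ubiquitin-conjugating enzyme of anaphase, was 13.5-fold higher and Mki67, the proliferation antigen, 13.3-fold, reading 2.35 and 2.40 on the KO arrays and -1.28 and -1.43 on the WT arrays. Among genes at least 4-fold higher in KO as a whole, 6.30% of promoters held both motifs.

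Controllers of the cell cycle and of cell death differed in part of their lists. Of 29 G1 cyclins and inhibitors 11 were higher and 2 lower; Cdkn1c, the imprinted inhibitor of cyclin-dependent kinases, was at 3.71, Ccnd1 at 3.29 and Rbl1, a pocket protein, at 2.31. Of 32 reported p53 targets 9 were higher and none lower, with Pmaip1, a killer protein of the BCL2 family, at 3.24 and Phlda3, an AKT inhibitor, at 2.52. Of 37 genes of apoptosis 12 were higher and 2 lower. Casp12, a caspase of the endoplasmic reticulum, was at 2.64, though its KO arrays, at 0.40 and -0.58, lay well apart. Of 32 immediate early genes 13 were higher and 1 lower, led by Ier3 (a bound of 3.79) and Egr2 (a bound of 3.18), both dim in WT.

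Genes of the extracellular matrix and of its turnover were higher in most cases. Of 41 matrix genes 31 were at least 2-fold higher and none lower. Nid1, the basement membrane linker nidogen, was at 3.84, Col1a1, the main collagen of scars, at 3.70, Fbln1, fibulin 1, at 3.58 and Spp1, osteopontin, at 3.58. Of 31 proteases and inhibitors 23 were higher and 1 lower. Plaur, the urokinase receptor, was at 4.05 (3.14 as the mean of its probes and 2.47 under normexp background correction). Plat, tissue plasminogen activator, was at 3.24. Stellate cell markers stood beside these lists as follows: 8 of 15 were higher and none lower, and their median level was 2.76 on both KO arrays and 1.0 and 0.73 on the WT arrays. Among them Acta2 (0.54) and Des (0.58), the contractile markers, and Lrat (-0.26), of retinoid storage, were within 2-fold. The part of these cells in the matrix values was not tested.

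Signalling pathways of growth and differentiation were higher in part. Of 29 genes of the Hippo pathway and reported YAP targets 13 were higher and 1 lower. Tead2, a partner of YAP, read 0.60 and 0.68 on the KO arrays and -3.41 and -3.26 on the WT arrays, 15.7-fold higher; Ankrd1, a YAP target, was at least 15.7-fold and Ajuba, an inhibitor of LATS kinases, 12-fold higher. Fgf1 was 5.87-fold lower. Of 22 Notch genes 8 were higher and 1 lower: the target Hey1 was 5.61-fold, and the ligand Jag1 4.13-fold higher, while Heyl (1.78) and Dll1 (1.63) were within 2-fold under normexp background correction (0.96 and 0.84). Of 48 genes of TGF beta, activin and BMP signalling 18 were higher and 2 lower, among them Ltbp2 (3.41), which binds the matrix, and Fst (2.98), the activin antagonist follistatin, which was at 0.10 after ENU.

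Wnt genes were divided between directions. Of 40 measured genes 10 were higher and 5 lower, against 13.7% and 11% of all genes. The median was too close to 0 to keep its sign across scalings. The higher members included the ligand Wnt4, 14.2-fold higher, and the secreted antagonists Wif1, at least 9.20-fold, Dkk3, 7.33-fold, and Sfrp1, 5.48-fold, the last within 2-fold (0.89) under normexp background correction. Among targets, Ccnd1 was at 3.29 while Sp5, a feedback repressor, was at -2.19. The list of growth hormone and insulin-like growth factor genes was similarly divided. Of 31 genes 9 were higher and 6 lower, with Igf2 and Igf2bp3 at the top. The growth hormone receptor Ghr was 5.36-fold lower (-2.42 on the log2 scale, or -1.30 as the mean of its probes) and the repressor Bcl6 4.77-fold lower.

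Inflammatory genes were higher beside markers of blood-derived leukocytes. Of 33 cytokines and chemokines 17 were higher and 2 lower. Ccl2 read 3.19 and 3.20 on the KO arrays and -2.47 and -2.40 on the WT arrays, 49.6-fold higher, Cx3cl1, the membrane-bound chemokine, was at 4.27, Ltb, lymphotoxin beta, at 4.25 and Cxcl14 at 3.83. Of 14 neutrophil markers 12 were higher and none lower, with median levels of -1.04 and -1.08 in KO and -3.09 and -3.16 in WT; Elane (a bound of 0.08) and Prtn3 (0.26) were near 0. Of 15 macrophage markers 9 were higher and none lower, with median levels of 2.03 and 2.04 against 1.01 and 1.05. Those of resident Kupffer cells, Clec4f (0.07), Timd4 (0.18) and Vsig4 (0.44), lay near 0, while Cx3cr1 and Ccr2, receptors of recruited monocytes, had bounds of 3.99 and 3.66 (1.64 for Ccr2 as the mean of its probes). None of 15 endothelial markers passed 2-fold; their median was -0.02, a sign that turned with the scaling. The part of these cells in the inflammatory values was not tested.

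Lymphocyte markers differed less uniformly. Of 13 T and NK cell markers 5 were higher and none lower, Cd8a (a bound of 2.87) highest and Cd3e (-0.91) lowest. Cd8a was at 1.82 as the mean of its probes and at 1.28 under normexp background correction. Of 9 B and plasma cell markers 4 were higher, Jchain (2.69) highest and Xbp1 (-0.65) lowest. Of 24 genes of antigen presentation 12 were higher and none lower, H2-Ab1 (2.04), H2-DMb1 (2.02) and the class II transactivator Ciita (1.93) among them.

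**Figure D5:**
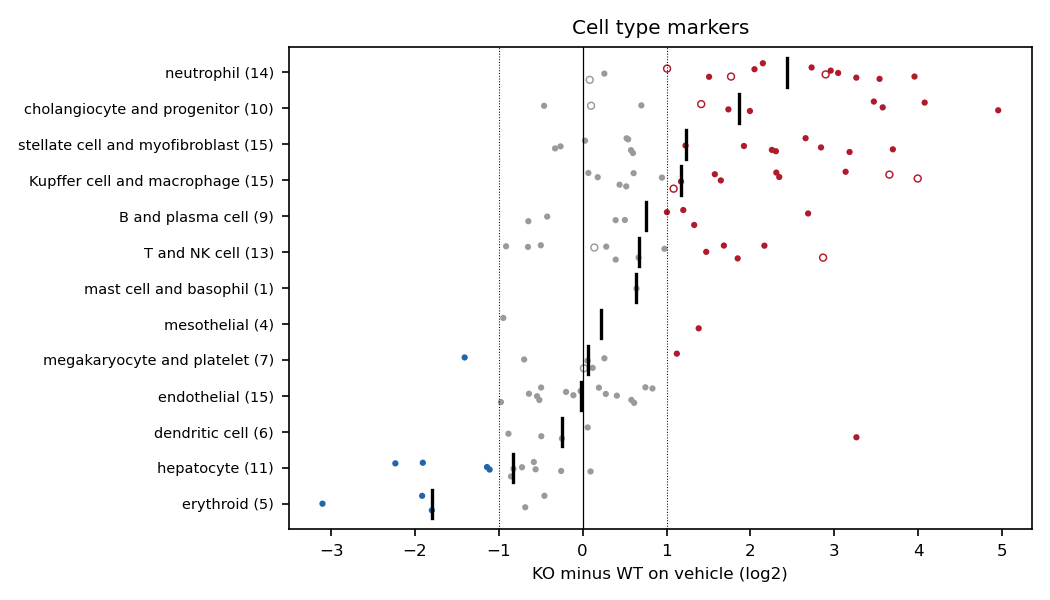
Difference between KO and WT on vehicle (log2) of each measured cell type marker, drawn as in the plot of families, with the number of markers measured in brackets. Neutrophil, cholangiocyte and stellate markers lie to the right, with 12, 7 and 8 markers past 2-fold, endothelial markers centre on 0, and hepatocyte and erythroid markers lie to the left.

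Interferon-induced genes were moderately higher. Of 41 measured, 18 were at least 2-fold higher and none lower, with a median of 0.86. Cxcl10, a chemokine of T cells, read 2.93 and 2.94 on the KO arrays and -0.42 and -0.45 on the WT arrays, 10.4-fold higher. Ifit2 was 5.90-fold, Isg15, a ubiquitin-like modifier, 3.78-fold, Ifit1 3.65-fold and Oasl2 3.20-fold higher. Isg15 was at -0.41 after ENU, where 8 genes of the list were higher and 1 lower. The core of the interferon-stimulated response element, GAAA and GAAA with any 2 bases between, stood in 2.67% of all promoters and in 15 of 31 of the list (48.4%), searched as above. The promoter of Cxcl10 is shown with its match in capitals, 213 bases before the start.
Cxcl10 (chr5:92348890-92349139, minus strand): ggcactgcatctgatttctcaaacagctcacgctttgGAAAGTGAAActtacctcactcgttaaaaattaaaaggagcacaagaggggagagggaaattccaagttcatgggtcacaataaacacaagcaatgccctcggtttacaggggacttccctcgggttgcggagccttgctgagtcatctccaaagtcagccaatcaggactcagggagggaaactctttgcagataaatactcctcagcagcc

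Genes of serine synthesis and the integrated stress response were divided between directions. Of 34 measured 9 were higher and 10 lower, with a median of -0.35 that turned sign with no scaling. Herpud1, a protein of endoplasmic reticulum quality control, was at -2.38 and Chac1, a glutathione-degrading enzyme, at -1.72. Phgdh, the first enzyme of serine synthesis, read 1.07 and 1.05 on the KO arrays and -3.33 and -3.35 on the WT arrays, 21.1-fold higher, and Psat1, the next enzyme, at least 29.3-fold. Asns, asparagine synthetase, was 7.34-fold and Vldlr, a lipoprotein receptor, 8.32-fold higher. Nupr1, a stress-induced chromatin protein, read 1.44 and 1.46 against -1.19 and -1.14, 6.15-fold higher. The element bound by ATF4 with C/EBP, TTGCATCA, stood in 0.578% of all promoters and in 5 of 33 of this list (15.2%); it overlaps no other motif searched, and in Nupr1 it lay 110 bases before the start.
Nupr1 (chr7:126625471-126625720, minus strand): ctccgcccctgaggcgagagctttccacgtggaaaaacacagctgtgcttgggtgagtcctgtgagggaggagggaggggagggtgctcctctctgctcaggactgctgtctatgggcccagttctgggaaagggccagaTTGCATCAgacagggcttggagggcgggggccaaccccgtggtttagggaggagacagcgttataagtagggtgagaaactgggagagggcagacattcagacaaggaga

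Lists of adult hepatocyte function had negative medians, by less than the largest single genes. Of 29 enzymes and serum proteins of the mature hepatocyte 15 were at least 2-fold lower and none higher, with a median of -1.02, but -0.31 after quantile normalization and -0.46 with no scaling. Cyp2e1, which oxidises ethanol, was 4.70-fold and Cyp1a2, the caffeine oxidase, 4.38-fold lower. The 11 hepatocyte markers had a median difference of -0.83, with 4 lower and none higher. Their median levels, 6.27 and 6.22 on the KO arrays and 7.95 and 7.95 on the WT arrays, lay further apart than that. Alb was at -0.58 and Trf at 0.09. Of 32 hepatocyte transcription factors 8 were lower and 1 higher, and the median of -0.58 turned sign with no scaling. Nr1i3, the receptor CAR, read 0.42 and 0.45 against 2.96 and 3.03, 5.92-fold lower, and Ppara, the fatty acid receptor, was 2.89-fold lower, though within 2-fold after quantile normalization (-0.92) and with no scaling (-0.97), while Sox9, a factor of bile duct cells, was at 1.99. Of 10 cholangiocyte and progenitor markers 7 were higher and none lower, with a median level of 0.91 and 0.92 in KO and -1.52 on both WT arrays; Cldn4 (a bound of 0.10) was near 0. Their part in the Notch, Hippo and epithelial genes was not tested.

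Genes of nitrogen and amino acid metabolism were more often lower than higher. Of 46 genes of amino acid catabolism 19 were lower and 1, Asns, higher, with a median of -0.90, but -0.27 after quantile normalization and -0.33 with no scaling. Prodh, proline dehydrogenase (-1.95), Afmid, an enzyme of tryptophan breakdown (-1.95), Tat, tyrosine aminotransferase (-1.91), and Tdo2, tryptophan dioxygenase (-1.84), were the lowest. Of 20 urea cycle and glutamine genes 6 were lower and 1 higher; the glutamate transporter Slc1a2 was at -3.14 and Otc, ornithine transcarbamylase, at -1.64.

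Carbohydrate genes were divided between directions. Hk2, a hexokinase of muscle and tumours, was 8.14-fold higher and Slc16a3, a lactate exporter, 7.91-fold, whereas Pklr, the liver pyruvate kinase, read -2.31 and -2.36 on the KO arrays and -0.01 and 0.07 on the WT arrays, 5.16-fold lower. Of 39 genes of glycolysis and gluconeogenesis 8 were higher and 7 lower. Pygb, brain glycogen phosphorylase, was 10.1-fold higher, while Ppp1r3b, a subunit that targets phosphatase to glycogen, was 3.91-fold lower; Gys2, liver glycogen synthase, was at -1.61, and at -0.98 after quantile normalization. Of 20 glycogen genes 3 were higher and 7 lower.

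Lipid genes were lower in most lists, with exceptions at the level of isoforms. Of 38 genes of fatty acid synthesis 14 were lower and 5 higher: beside the low Elovl3 and Thrsp, Elovl7, an elongase, was higher by 5.37 on the log2 scale (4.49 without WT array b and 3.02 under normexp background correction), Mogat2, an acyltransferase of the intestine, was 22.3-fold higher and Scd2, a stearoyl-CoA desaturase of other tissues, 10.3-fold. Of 45 genes of fatty acid oxidation 21 were lower and 3 higher, with Cyp4a12a, a fatty acid hydroxylase, at -2.82 and Ucp2, a mitochondrial carrier, at 1.99. Of 25 lipid droplet genes 10 were lower and 4 higher; Fitm1 was 10.8-fold and G0s2, an inhibitor of lipolysis, 6.34-fold lower.

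Bile acid genes were among the lowest of the metabolic lists. Of 30 measured 16 were lower and 3 higher, with a median of -1.08. Cyp7b1 read 0.78 and 0.75 on the KO arrays and 6.40 and 6.39 on the WT arrays. Cyp8b1, the sterol hydroxylase that sets cholic acid, was 8.76-fold and Cyp27a1, the sterol hydroxylase of mitochondria, 8.26-fold lower. The basolateral exporter subunit Slc51b was above background only in KO and at least 8.29-fold higher. Cholesterol synthesis did not share this pattern on vehicle: 6 of 29 genes were lower and 1 higher, with a median of 0.07 whose sign turned with the processing. After ENU, 22 of the 29 were lower and none higher.

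Plasma cascades made by the liver were lower in part. Of 44 complement and coagulation genes 19 were lower and 3 higher, with a median of -0.90, but -0.24 after quantile normalization and -0.34 with no scaling; the members of the membrane attack complex C8b (-2.28), C6 (-2.11) and C8g (-1.84) were low, beside Cfd. Of 32 acute phase genes 8 were lower and 4 higher, Saa4 (-2.62, or -1.98 without KO array a) lowest and Lcn2 (3.96), a neutrophil product too, highest. Of 29 genes of iron and heme 6 were lower and 4 higher. Among all genes 11% were lower and 13.7% higher. Erythroid markers were lower: Alas2, the first enzyme of heme synthesis in red cells, read 2.38 and 2.35 in KO and 5.47 and 5.47 in WT, 8.59-fold lower, Klf1 was 3.77-fold and Hba-a1, alpha globin, 3.48-fold lower, and Epor (-0.46) and Slc4a1 (-0.68) were within 2-fold. The 5 erythroid markers had a median difference of -1.80. Their median level was -0.69 and -0.70 in KO and -0.24 and -0.23 in WT, and their part in the heme genes was not tested.

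Sex-dependent genes differed in one direction only for the male-predominant set. Of 28 male-predominant genes 27 were lower and none higher, with a median of -2.38. Of 37 female-predominant genes 12 were higher and 6 lower, led by Sult2a2 and by Ntrk2, a neurotrophin receptor that read 1.82 and 1.81 in KO and -5.35 and -4.08 in WT. Only 1 WT array of Ntrk2 was above background. The difference, 6.53 on the log2 scale, was 5.89 without WT array a, 5.64 without WT array b and 4.08 under normexp background correction. The median of the female-predominant set was -0.27 over the 32 measured in both groups and 0.04 with bounds, so no direction is given for the set. The labels call the mice female, yet 2 Y-linked genes had signal on all 4 arrays; the sex of the mice in its relation to these values was not tested.

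Antioxidant and clock genes were mixed or lower, and few chaperone genes passed 2-fold. Of 42 NRF2 and antioxidant genes 11 were higher and 10 lower: Gpx3, the plasma glutathione peroxidase, was at 2.86 and Gsta2 at 2.22, while Me1, malic enzyme, was at -1.95. Of 26 clock genes and outputs 11 were lower and 2 higher. Ciart, a clock repressor, was 5.92-fold lower, Dbp, a clock output factor, read 2.50 and 2.49 on the KO arrays and 4.48 and 4.46 on the WT arrays, 3.94-fold lower, and Nr1d2 was 3.53-fold lower, whereas Csnk1e, a kinase of PER proteins, was 4.19-fold higher. After ENU 6 of the 26 were higher and 2 lower, with Dbp at 1.85 and Nr1d2 at -0.04. The hour at which the livers were taken is not given in the labels. Of 36 heat shock and chaperone genes 6 were lower and 4 higher, against 11% and 13.7% of all genes. Hspb1 (-2.18) was lowest and Serpinh1, the collagen chaperone (2.33), highest.

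The ENU pair, which lay on another slide and shared no sample with the vehicle pair, gave the genotype difference in mice given ENU. After ENU 14.1% of all genes were at least 2-fold higher and 13.8% lower. Of the 2413 genes higher on vehicle 1820 (75.4%) were also at least 2-fold higher after ENU, and of the 1930 lower ones 1320 (68.4%) were also lower. Of genes at least 4-fold higher on vehicle 806 (94.0%) were higher after ENU, and of those at least 4-fold lower 234 (85.7%) were lower. The opposite direction past 2-fold was found for 10 of the higher and 9 of the lower genes. Among them, Ppp1r3g, a glycogen-targeting subunit, read -0.20 and -0.21 in KO and 2.66 and 2.65 in WT, a difference of -2.86 on vehicle and 2.63 after ENU, and Hmgcs1, an enzyme of cholesterol synthesis, was at 1.41 and -1.44. No test of the difference between the pairs exists, since each is 1 sample against 1.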

How the data were processed

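Liver total RNA was hybridised to 1-colour Agilent arrays, and the vehicle arrays of both genotypes were compared. The intensity of each spot was deposited as the background-corrected processed signal of Agilent Feature Extraction, version 10.7.1.1 per the file headers and 10.5.1 per the submitters' processing notes, with annotation in mm7 (NCBI35) coordinates. The number of spots limits the precision within an array, and the number of RNA samples, 1 a group, that of the comparison.

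Of 45018 spots 43379 were no controls. From the deposited intensity, log2 values minus the 75th percentile of each array were computed, repeated spots were averaged to 41174 probes, and a probe was kept if it was well above background on both arrays of KO or of WT. Probes were named by RefSeq through accession (23075), symbol (6587) or synonym (3072), and otherwise kept the name in the files (8440); of the genes measured, 14137 had a RefSeq name and 3426 a name of the files. A gene was represented by its brightest passing probe. In 39 genes that probe was itself dim in WT and in 1 in KO, although another probe of the gene was not.

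Genes were named by rule: each probe of Dicer1, the 20 largest differences in each direction, the 10 largest bounds in each direction, up to 5 members of each list, up to 4 members and those against the median in the 12 highest and 12 lowest families, and genes opposite after ENU. Not every gene so chosen is printed: transcripts that the files name only by a sequence record, and some others, are left out. Cyp2b9, Cyp2c55, H2-Aa, Sp5, Ube2c, Mki67, Krt20, the remaining markers, the genes of neighbour runs and the further genes opposite after ENU were chosen after their values were seen. The groups, 44 lists and families were chosen with earlier results of these data known, and 3 marker lists after the values were seen. Of the 1345 genes measured in the 44 lists, 135 stand in more than 1 of them. Genes shared with marker lists or families are not in that count.

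The alternatives were normexp background correction with an offset of 50, scaling on the median, quantile normalization, no scaling, other filters, the mean of all probes, folds of 1.5 and 4, and leaving out each array. The steps were tested on simulated data. R 4.3.3 with limma 3.58.1 and Python 3.11.15 with pandas 2.3.3 and numpy 2.4.6 were used.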

Additional observations from a re-analysis of the deposited data

Results flagged for a closer look

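4 genes named above or here differed in opposite directions between the genotypes on vehicle and after ENU; the difference between the pairs was not tested, since each pair is 1 RNA sample against 1. Padi4, a peptidylarginine deiminase of neutrophils, was above background only in KO on vehicle, with a bound of 3.35 on the log2 scale, and was at -1.17 after ENU. Ppp1r3g was at -2.86 on vehicle and 2.63 after ENU. Dbp was at -1.98 on vehicle and 1.85 after ENU. Hmgcs1 was at 1.41 on vehicle and -1.44 after ENU.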

How the results depend on the processing

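Of 371 named genes 345 were past 2-fold; none of these changed direction under median scaling or without scaling, and 4 lay within 2-fold under median scaling, 27 under normexp correction, 19 under quantile normalization and 28 unscaled. The counts of genes past 2-fold varied more than 1.5 times in these settings, all against 2413 higher, 1930 lower and 3140 in the same direction after ENU. Normexp correction gave 1403 higher, 1253 lower and 1972 in the same direction. Median scaling gave 3106 lower (1946 higher), and no scaling, added after the data were seen, 4259 higher and 621 lower. A fold of 1.5 gave 4659 lower and 6139 in the same direction, and a fold of 4 gave 857, 273 and 735. Leaving out each array gave 2232 to 2526 higher and 1906 to 2182 lower. Quantile normalization, the filter on all 4 arrays and the mean of probes kept all 3 counts within 1.5 times. Ms4a1 was at -0.040 under normexp correction. Scn2a was at -2.60 under quantile normalization, at -2.38 with the filter on all 4 arrays, and between -2.90 and 6.18 when single arrays were left out; another of its probes was then used. Of 90 list and family medians 4 changed sign under normexp correction, 8 under median scaling, 9 under quantile normalization and 13 unscaled, among them cholesterol synthesis, female-predominant genes, Wnt, NRF2, glycolysis, acute phase, iron and heme, and hepatocyte transcription factors. No paired analysis was possible because the results come from no test: arrays a and b of a group are repeats of 1 RNA sample. Signal over background limits the 1508 genes dim in WT and the 81 dim in KO to bounds.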

Other observations

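Promoter elements were counted at both ends of the comparison, with no test. TATAAA stood in the 250 bases before the start of 7.83% of all measured genes, of 16.4% of the genes at least 4-fold lower in KO and of 10.3% of those at least 4-fold higher. The NRF1 element, GCGC and TGCGC with any base between, stood in 7.54% of all promoters, in 2.82% of those at least 4-fold higher and in 1.21% of those at least 4-fold lower. Respiratory chain families differed in it: 17.9% of the Nduf genes, 15% of Atp5 and Uqcr and 5.26% of Cox genes held it. A match is a description of the letters, not a site.

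Genes at least 4-fold higher made up 6.49% of the genes measured on chromosome X, the largest share of any chromosome, and 3.88% on chromosome 8, the smallest. Further genes of opposite direction between vehicle and ENU were Prelid2, at 1.35 and -2.95, Ptgds, the prostaglandin D2 synthase, at 1.25 and -2.51, H2-Eb1, a class II gene, at 1.73 and -1.12, and Acot3, an acyl-CoA thioesterase, at -1.12 on vehicle and a bound of 2.80 after ENU. Krt20, a keratin of intestinal epithelium, read 3.52 and 3.50 in KO and -3.75 and -3.78 in WT, where 1 array was above background, 155-fold higher.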
